A study of Mus musculus with 6 samples.

Results

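The 80 genes described here encode the proteins of the cytosolic ribosome. They were chosen by name from the 27179 genes of the count tables, as protein-coding genes whose symbol is Rpl or Rps followed by a number, with Rplp0, Rplp1, Rplp2 and Rpsa added. Of the 80, 50 encode 60S (large subunit) proteins and 30 encode 40S (small subunit) proteins. Pseudogenes and the kinase genes whose symbols begin with Rps6k were left out, as were Rps19bp1 and Rps27l. Rpl6l and Rps4l match the name pattern and are not annotated as protein coding, so they were left out too. Expression was measured by RNA-seq in livers of C57BL/6 mice, with 3 wild-type and 3 Mettl3-deficient libraries and no treatment given in the labels. Mettl3 is the catalytic subunit of the enzyme that writes N6-methyladenosine on RNA. The sources used here do not give how Mettl3 was made deficient, in which liver cells, or the age and sex of the mice. Livers are numbered 1 to 3 within a genotype with no word on whether each is a different mouse, and the tests below therefore rest on the variation among these 6 libraries, part of which may be technical.

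A mouse cell makes ribosomes from ribosomal RNA and about equal numbers of each ribosomal protein, and liver, which secretes most plasma proteins, is rich in them. Messenger RNAs of ribosomal proteins begin with a 5′ terminal oligopyrimidine (TOP) tract, a C followed by a run of pyrimidines, through which the mTORC1 kinase and the protein Larp1 control their translation together. Their promoters are known for ETS, YY1 and Myc binding. Free Rpl5 and Rpl11, bound to 5S ribosomal RNA, can hold the p53 regulator Mdm2.

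Promoter sequence was available from RefSeq (GRCm38.p6) for 60 of the 80 genes, with 71 annotated transcription starts. The windows below run from 40 bases before to 20 bases from the start and show runs of pyrimidines near the annotated start. They belong to the 4 genes with the highest and the 4 with the lowest fold changes among tested members with 1 start in these promoter sequences. The annotated genes of Rps12 and Rps2 reach further upstream than the starts used here. Capitals mark a C followed by at least 4 pyrimidines whose first base lies within 10 bases of the annotated start.
Rps12 (chr10:23787190-23787249, minus strand): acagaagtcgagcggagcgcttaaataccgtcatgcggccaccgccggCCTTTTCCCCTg
Rplp2 (chr7:141447611-141447670, plus strand): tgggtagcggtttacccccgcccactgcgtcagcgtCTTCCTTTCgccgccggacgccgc
Rps23 (chr13:90923082-90923141, plus strand): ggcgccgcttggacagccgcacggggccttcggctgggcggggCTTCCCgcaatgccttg
Rpl14 (chr9:120571477-120571536, plus strand): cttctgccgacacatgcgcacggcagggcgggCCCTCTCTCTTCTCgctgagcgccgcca
Rps2 (chr17:24720023-24720082, plus strand): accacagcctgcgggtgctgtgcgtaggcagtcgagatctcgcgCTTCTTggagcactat
Rpl10 (chrX:74270776-74270835, plus strand): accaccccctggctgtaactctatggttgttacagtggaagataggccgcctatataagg
Rpl11 (chr4:136053374-136053433, minus strand): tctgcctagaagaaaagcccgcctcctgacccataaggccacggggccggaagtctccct
Rpl24 (chr16:55966235-55966294, plus strand): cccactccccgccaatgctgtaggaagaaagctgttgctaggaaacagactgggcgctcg
In the 4 genes with the highest fold changes each window holds such a tract, of 11 bases in Rps12, 9 in Rplp2, 6 in Rps23 and 14 in Rpl14. Of the 4 with the lowest, Rps2 has a tract of 6 bases and Rpl10, Rpl11 and Rpl24 have none within 10 bases of the annotated start. In Rpl11 a run of this kind stands further in, at the end of its window. The start used in liver may differ from the annotated one, so a window without a tract does not show a messenger RNA without one. Over all 71 member starts, 56.3% had a tract, against 30.7% of 32851 starts of all genes. The median log2 fold change was 0.40 in the 34 tested members with a tract and 0.33 in the 22 without. These 8 windows were picked by fold change, so the contrast between them is a description.

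Letters bound by known promoter factors were searched too. In the 300-base windows from 250 bases before to 50 after the start, searched on both strands, the ETS core CCGGAA stood in 46.5% of member starts against 14.9%, and the SP1 letters GGGCGG in 57.7% against 35.7%. The E-box CACGTG, to which Myc can bind, stood in 11.3% against 7.2%, and TATAAA in 9.9% against 13.6%. A match is only a run of letters and not a bound site.

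The libraries held 31960205 to 36025772 counts, and Mettl3 transcript was lower in all 3 Mettl3-deficient libraries. Mettl3 stood at 13.4, 14.3 and 12.1 CPM (counts scaled to a common library size with TMM factors, which correct for differences in RNA composition) in wild type and at 5.96, 6.60 and 4.94 CPM in Mettl3-deficient libraries. It fell by 1.18 ± 0.20 on the log2 scale (SE, edgeR adjusted p = 0.00797). Wild type replicate 1 stood apart from the other wild-type libraries, with a chi-square per degree of freedom of 288 and 282 against them, where they differed from each other by 16.2. Among the Mettl3-deficient libraries the value was 122 and 231 for replicate 2 against replicates 1 and 3, and 85 between those. Y-linked transcripts gave 6514, 4757 and 5036 counts in wild type replicate 1 and Mettl3-deficient replicates 1 and 2, and 6 to 11 counts in the other libraries. Y-linked transcripts, a sign of male tissue, were thus split unevenly between the genotypes. The main comparison of genotypes had no term for this.

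Ribosomal protein transcripts took a larger share of all counts in every Mettl3-deficient library than in any wild-type library. The share was 2.02%, 1.49% and 1.47% in wild type and 2.53%, 4.13% and 2.17% in Mettl3-deficient replicates 1 to 3. The means were 1.66% ± 0.311 and 2.94% ± 1.04 (SD, n = 3), a ratio of 1.77, or 1.42 without Mettl3-deficient replicate 2. After TMM scaling the groups overlapped. The summed level was 22909, 18076 and 17482 CPM in wild type and 21754, 32903 and 19388 CPM in Mettl3-deficient libraries. Its means were 19489 ± 2977 and 24682 ± 7217 CPM (SD, n = 3), a ratio of 1.27, and 1.06 without Mettl3-deficient replicate 2. The TMM factors, which divide the counts, were 0.881, 0.825 and 0.840 in wild type and 1.17, 1.25 and 1.12 in Mettl3-deficient libraries.

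**Figure D1:**
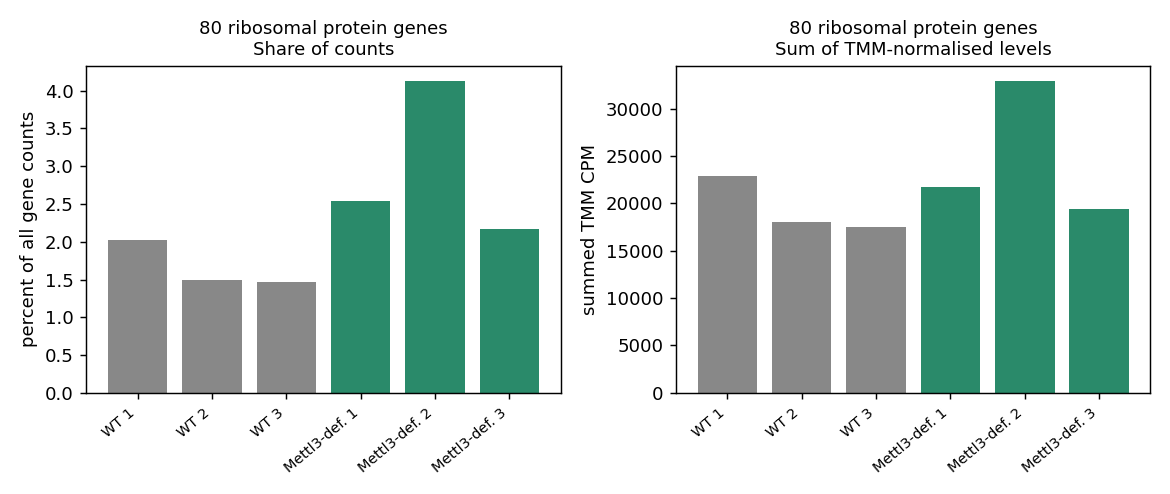
Bars give, for each library, the percent of all gene counts that fell on the 80 ribosomal protein genes (left) and their summed TMM CPM (right), wild type in grey and Mettl3-deficient in green. On the left every green bar is above every grey bar, while on the right Mettl3-deficient replicates 1 and 3 (21754 and 19388 CPM) lie below wild type replicate 1 (22909 CPM).

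Most members were high or low in the same libraries, within a genotype as well as between genotypes. Of the 76 members tested, 72 had their highest level in Mettl3-deficient replicate 2 and the other 4 in wild type replicate 1. Among the wild-type libraries, 73 of the 76 were highest in replicate 1. Relative to each gene's wild-type mean, the median member stood at 1.19, 0.916 and 0.894 in the wild-type libraries and at 1.12, 1.74 and 1.02 in the Mettl3-deficient libraries. Mettl3-deficient replicate 1 was above both wild type replicates 2 and 3 in 67 members, but above wild type replicate 1 in 31. Mettl3-deficient replicate 3 was above both wild type replicates 2 and 3 in 57 members, and above wild type replicate 1 in 15.

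**Figure D2:**
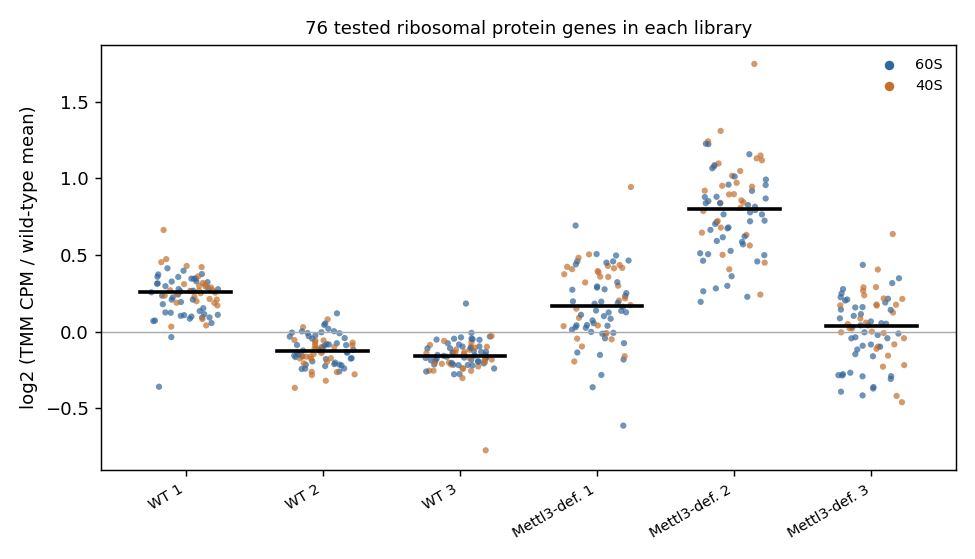
Each dot is 1 of the 76 tested genes in 1 library, as log2 of its TMM CPM over its wild-type mean, with 60S and 40S members in different colours and a black bar at the median. The cloud is high in wild type replicate 1 (median ratio 1.19) and highest in Mettl3-deficient replicate 2 (1.74), and wild type replicates 2 and 3 are lowest (0.916 and 0.894).

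Other measures also differed between these libraries, not always in the family's order, and their part in the family's level was not tested. Wild type replicate 1 and Mettl3-deficient replicates 1 and 2, the 3 libraries with Y-linked transcripts, had summed family levels of 22909, 21754 and 32903 CPM. The 3 libraries without them were all lower, at 18076 and 17482 CPM in wild type and 19388 CPM in Mettl3-deficient replicate 3. Transcripts encoded by the mitochondrial genome took 4.66%, 3.55% and 3.98% of counts in wild type and 5.45%, 6.24% and 4.80% in Mettl3-deficient libraries, again with replicate 1 highest in wild type and replicate 2 highest in Mettl3-deficient livers. Each tested hepatocyte marker of 5 had a log2 fold change below 0 and 2 fell, and the summed level of the 5 ran from 130739 to 165162 CPM in wild type and from 42669 CPM (replicate 2) to 70254 CPM in Mettl3-deficient libraries. The 6 Kupffer cell and macrophage markers summed to 81.0 CPM in wild type replicate 1 and to 529 CPM in Mettl3-deficient replicate 2, with the other libraries between 277 and 322 CPM, and 1 of the 6 rose. The 5 cycling-cell markers all rose. They summed to 4.01, 11.5 and 13.3 CPM in wild type and to 95.0, 62.9 and 64.3 CPM in Mettl3-deficient replicates 1 to 3. Within each genotype their sum was lowest in the library where the family was highest.

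Of 5 cholangiocyte markers 1 rose (summed 83.9 to 108 CPM in wild type, 75.9 to 224 CPM in Mettl3-deficient libraries), and of 5 endothelial markers 1 fell (117 to 174 CPM and 100.3 to 131 CPM). The 5 stellate cell and fibroblast markers gave no call (367 to 417 CPM and 308 to 611 CPM). Blood cell markers were low. Of the 5 T and NK cell markers 1 fell, and the other 4 had log2 fold changes above 0 without a call. The 5 summed to at most 3.76 CPM in any library. The 4 B and plasma cell markers (1 rose) summed to at most 7.15 CPM. The 4 neutrophil markers, with Ly6g at 0 and 1 gene higher by the test, summed to at most 4.82 CPM. The 3 erythroid markers (1 fell) summed to 147 CPM in wild type replicate 1 and to 12.1 to 37.7 CPM elsewhere. For comparison with all these markers, 13.3% of all tested genes were called higher and 10.5% lower. These are whole livers, in which fewer cells of a type and less RNA per cell cannot be told apart.

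The comparison of genotypes across all genes called 1 of the 76 tested members, Rps12, as higher and none as lower (edgeR, Benjamini-Hochberg adjusted over 14380 genes, threshold 0.05). In the same fit 13.3% of all tested genes were called higher and 10.5% lower, beside 1.32% and 0% of the tested members. Unadjusted p was under 0.05 in 13 members, all with higher levels in Mettl3-deficient livers, which is 17.1% of the 76 against 20.8% of all tested genes. The median log2 fold change of the 76 was 0.38, with quartiles of 0.21 and 0.53 and a range from -0.13 to 1.19, against 0.01 over all tested genes. It was above 0 in 70 of the 76. Without Mettl3-deficient replicate 2 the median was 0.11 and 52 of 76 were above 0, while without wild type replicate 1 the median was 0.50 and 74 were above 0. Among the 3 libraries with Y-linked transcripts the median log2 ratio was 0.25, and among the 3 without them 0.20.

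**Figure D3:**
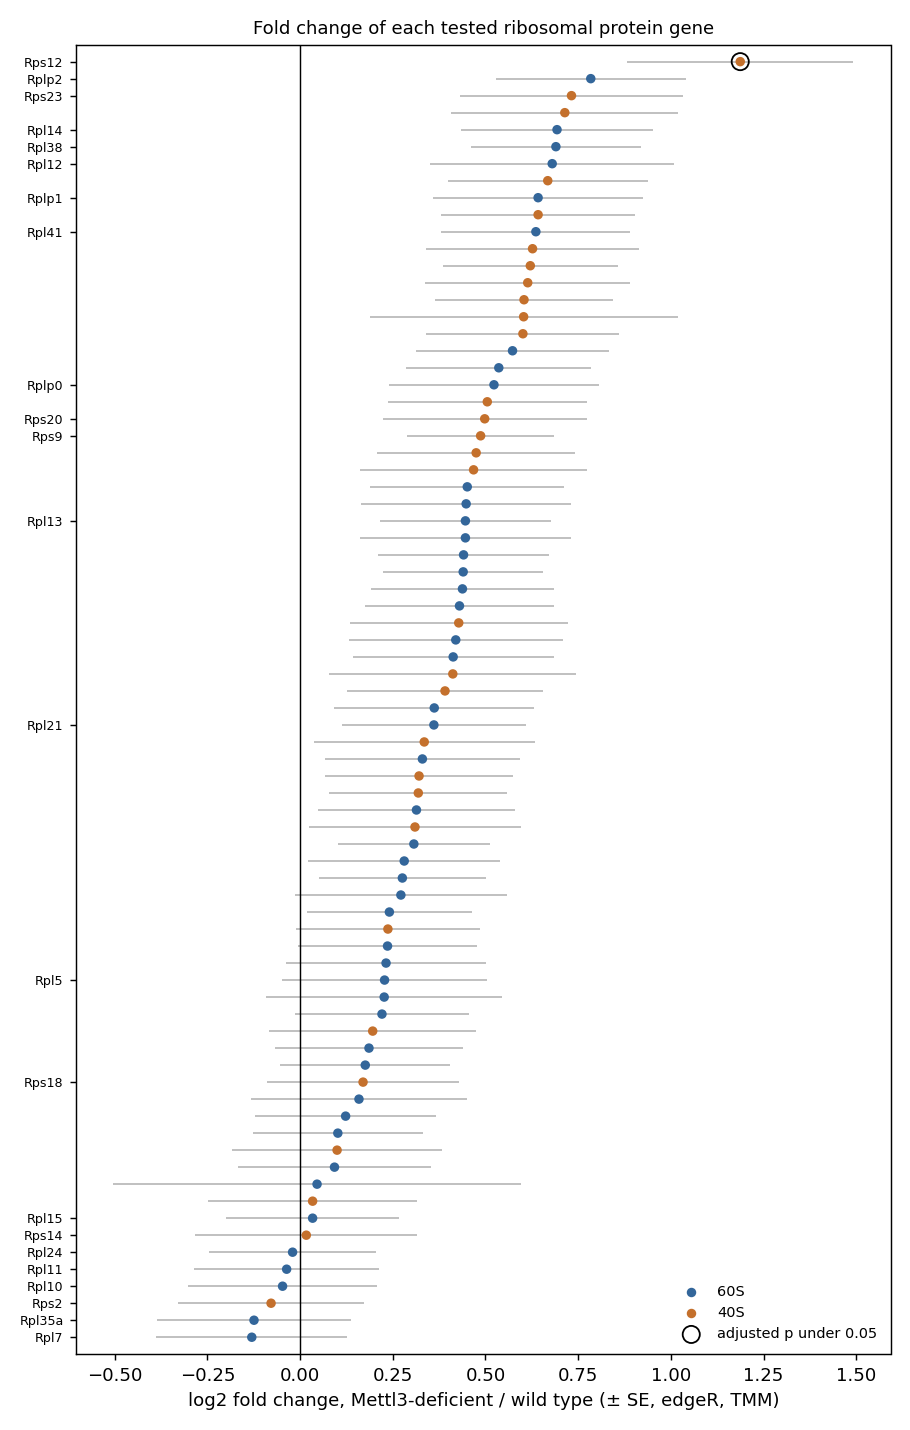
Points give the log2 fold change of each of the 76 tested genes, Mettl3-deficient over wild type, with bars of 1 SE from edgeR, 60S and 40S members in different colours, a black ring at an adjusted p under 0.05, and names at some of the genes. Rps12, at 1.19, carries the only ring, and 70 of the 76 points lie right of 0.

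Rps12, a 40S protein known in Drosophila for its part in competition between cells that differ in ribosomal protein gene dose, rose. Rps12 (Entrez 20042, chromosome 10, 23785183 to 23787383, GRCm38) stood at 159, 133 and 127 CPM in wild type and at 268, 468 and 217 CPM in Mettl3-deficient libraries. Each Mettl3-deficient library was above each wild-type library, and replicate 2 was highest by far. The means were 140 ± 17.1 and 318 ± 133 CPM (SD, n = 3), and the log2 fold change of Rps12 was 1.19 ± 0.31 (SE, edgeR adjusted p = 0.0287). Leaving out Mettl3-deficient replicate 2 lowered the log2 fold change of Rps12 to 0.80 with the call kept (edgeR adjusted p = 0.0420). The Rps12 call was lost when wild type replicate 2 (edgeR adjusted p = 0.0980) or 3 (0.0992) was left out, and also when replicate 1 of the Mettl3-deficient group was (0.0630). The log2 fold changes of Rps12 were then 1.15, 1.12 and 1.30.

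The 3 stalk proteins of the 60S subunit, which recruit the translation factors that hydrolyse GTP, were each higher in all 3 Mettl3-deficient libraries than in any wild-type library, and none passed the test. Rplp2 stood at 123, 121 and 106 CPM in wild type and at 188, 273 and 141 CPM in Mettl3-deficient libraries (log2 fold change 0.78 ± 0.26, SE, edgeR adjusted p = 0.0592), the second-smallest adjusted p of the family. Rplp1 stood at 631, 558 and 484 CPM against 791, 1167 and 651 CPM (0.64 ± 0.28, edgeR adjusted p = 0.132). Rplp0, which anchors both to the ribosome, stood at 663, 633 and 580 CPM against 755, 1243 and 697 CPM (0.52 ± 0.28, edgeR adjusted p = 0.206). The groups were set apart in these genes by smaller gaps than the distance between Mettl3-deficient replicate 2 and its own group.

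The proteins of the 5S particle differed little. Rpl5 stood at 399, 294 and 295 CPM in wild type and at 338, 522 and 297 CPM in Mettl3-deficient libraries, and its log2 fold change was 0.23 ± 0.28 (SE, edgeR adjusted p = 0.572). Rpl11 stood at 417, 306 and 284 CPM against 305, 403 and 274 CPM, with a log2 fold change of -0.04 ± 0.25 (SE, edgeR adjusted p = 0.928). In Rpl11 wild type replicate 1 was the highest of the 6 libraries, and in both genes the groups overlapped.

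The 40S members had a median log2 fold change of 0.47 over 30 genes and the 60S members of 0.31 over 46. Rps23, which lines the decoding centre, stood at 281, 199 and 208 CPM in wild type and at 320, 542 and 280 CPM in Mettl3-deficient libraries (log2 fold change 0.73 ± 0.30, SE, edgeR adjusted p = 0.111). In Rps23 the groups overlapped, because Mettl3-deficient replicate 3 lay just below wild type replicate 1.

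Among the 60S members, Rpl14 stood at 202, 186 and 174 CPM in wild type and at 257, 418 and 233 CPM in Mettl3-deficient libraries (log2 fold change 0.69 ± 0.26, SE, edgeR adjusted p = 0.0883). Rpl38, whose loss in mice disturbs the body plan of the axial skeleton, stood at 112, 87.4 and 91.4 CPM against 132, 206 and 131 CPM (0.69 ± 0.23, edgeR adjusted p = 0.0627). In Rpl14 and Rpl38 the groups did not overlap. In Rpl12, a protein at the base of the stalk, they did, with 325, 216 and 226 CPM against 361, 597 and 272 CPM (0.68 ± 0.33, edgeR adjusted p = 0.165).

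At the other end of the order, Rpl7 stood at 583, 421 and 405 CPM in wild type and at 365, 537 and 386 CPM in Mettl3-deficient libraries (log2 fold change -0.13 ± 0.26, SE, edgeR adjusted p = 0.739). Rpl35a, one of the genes mutated in human Diamond-Blackfan anaemia, was at -0.12 ± 0.26 (edgeR adjusted p = 0.755). Rps2, near the messenger RNA entry of the 40S subunit, stood at 845, 838 and 782 CPM against 768, 971 and 597 CPM (-0.08 ± 0.25, edgeR adjusted p = 0.841). Rpl10, which joins the 60S subunit late in its assembly, had -0.05 ± 0.25 and Rpl24 had -0.02 ± 0.23 (edgeR adjusted p of 0.908 and 0.957). Rps14 was at 0.02 and Rpl15 at 0.03, and both fell below 0 with a covariate for Y-linked counts (-0.18 and -0.11). In each of these genes the groups overlapped, and with library size alone in place of TMM the fold changes of Rpl7, Rpl35a, Rps2, Rpl10, Rpl11 and Rpl24 turned positive, from 0.35 to 0.46.

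**Figure D4:**
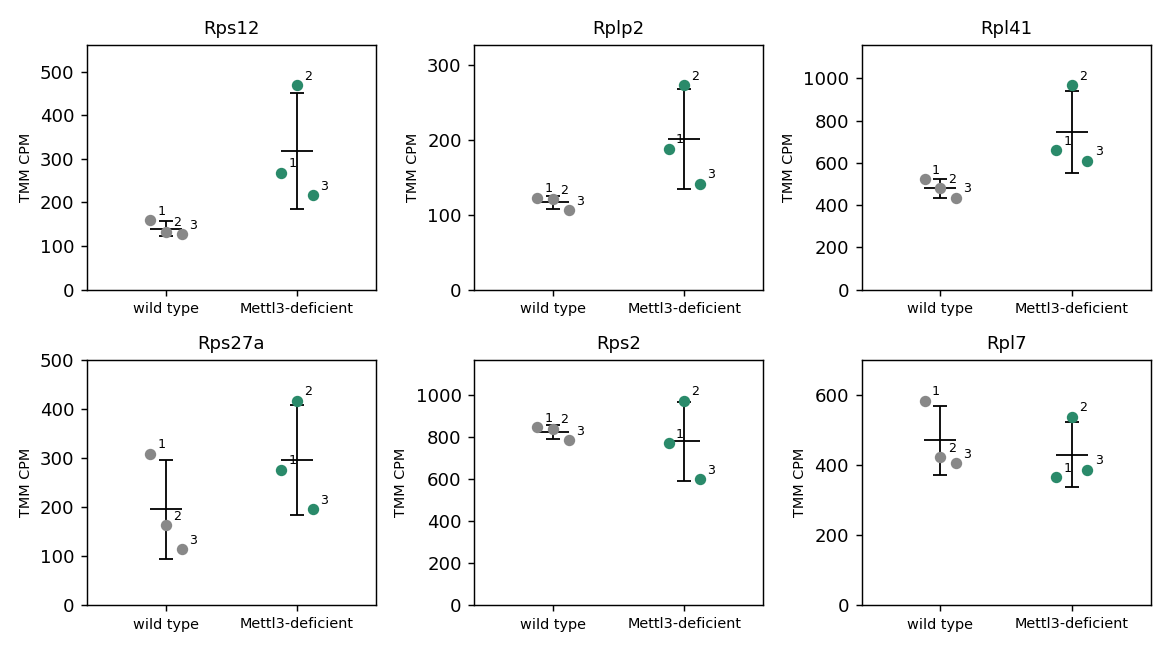
Each panel plots TMM CPM of 1 gene by genotype, from 0, with dots numbered by replicate, a dash at the mean and bars of 1 SD (n = 3). Replicate 2 is the highest Mettl3-deficient dot in all 6 panels, Rps12, Rplp2 and Rpl41 show no overlap of the groups, and Rps27a, Rps2 and Rpl7 overlap.

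Counted over the family, the groups did not overlap in 15 of the 76 members, each with the Mettl3-deficient libraries above, against 23.9% of all tested genes, and in none with them below, against 21.9%. The 15 were 8 members of the 60S subunit (Rpl14, Rpl28, Rpl29, Rpl38, Rpl41, Rplp0, Rplp1 and Rplp2) and 7 of the 40S subunit (among them Rps9, Rps12, Rps13, Rps21, Rps24 and Rps28). The 15 are 19.7% of the tested members, near the background for the higher direction.

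Rps27a, which encodes ubiquitin fused to a 40S protein and is described here because its wild-type libraries spread widely, stood at 309, 163 and 114 CPM in wild type and at 277, 418 and 195 CPM in Mettl3-deficient libraries. Its log2 fold change of 0.60 ± 0.41 (SE) had an edgeR adjusted p of 0.313. Across all 76 members the median SE of the log2 fold change was 0.26, and it was 0.26 over all tested genes too.

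The number of members called depended on the scaling of the libraries. With library size alone, 38 of the 76 (22 of the 60S and 16 of the 40S members) were called higher by edgeR, which is 50% of them, and none lower, against 33.4% of all tested genes higher and 4.14% lower. Under it the median over all genes went from 0.01 to 0.49 on the log2 scale, and the members' median from 0.38 to 0.87. So 70 members were above the median of all genes under either scaling. In CPM of library size alone the groups did not overlap in 52 members, 68.4% of them, each with the Mettl3-deficient libraries above, against 46.9% of all tested genes, and in none with them below, against 7.4%. DESeq2, with its own size factors, called 5 members higher and 14.4% of its tested genes. They were Rps12 (DESeq2 adjusted p = 0.00101), Rplp2 (0.0200), Rpl38 (0.0291), Rpl41 (0.0343) and Rpl14 (0.0394). Without Mettl3-deficient replicate 3, edgeR called Rps12 (adjusted p = 0.0165), Rplp2 (0.0224) and Rpl13 (0.0389), against 13.1% of all tested genes.

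**Figure D5:**
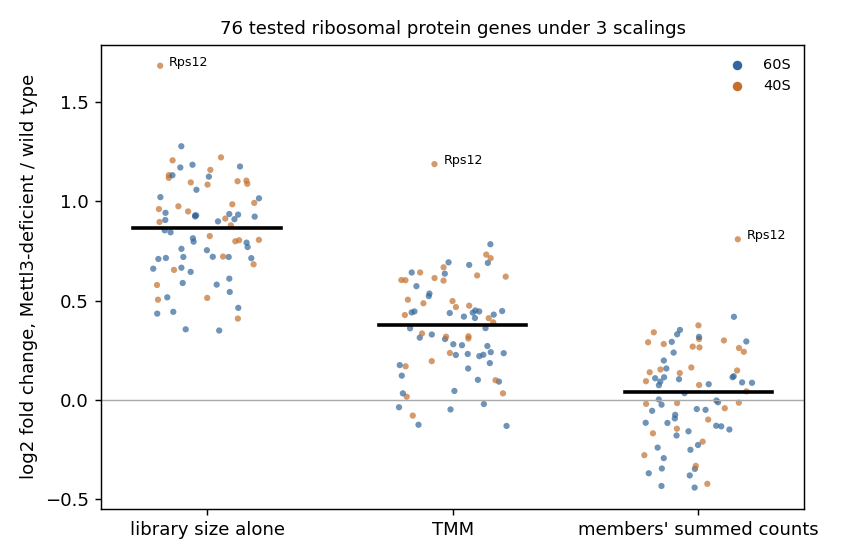
Dots give the log2 fold change of each of the 76 tested genes under 3 scalings of the libraries, with 60S and 40S members in different colours and a black bar at the median. The median falls from 0.87 with library size alone to 0.38 with TMM and to about 0 with the members' own summed counts, and Rps12, labelled, is the highest dot in each column.

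Scaling by the family's own summed counts, an alternative chosen after seeing the data, asks which members changed relative to the others. No member was called by edgeR, against 10.6% of all tested genes in either direction, and only Rps12 had an unadjusted p under 0.05 (log2 fold change 0.81, edgeR adjusted p = 0.168). Rps12 took 0.694%, 0.735% and 0.727% of the family's counts in wild type and 1.23%, 1.42% and 1.12% in Mettl3-deficient libraries. Rplp2 took 0.535%, 0.669% and 0.609% against 0.866%, 0.830% and 0.729%. In both genes each Mettl3-deficient library was above each wild-type library, not only the one with the highest family level.

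Other members had lower shares. Rpl7 took 2.55%, 2.33% and 2.31% of the family's counts in wild type and 1.68%, 1.63% and 1.99% in Mettl3-deficient libraries, and Rps2 took 3.69%, 4.64% and 4.47% against 3.53%, 2.95% and 3.08%. The groups did not overlap in 20 members with higher shares in Mettl3-deficient livers (12 of the 40S and 8 of the 60S subunit) and in 18 with lower shares (6 and 12). Over all tested genes, set against the family's counts in the same way, 11.8% were apart above and 24.5% below. The shares of a fixed total must move against each other, so the count on one side is not independent of that on the other.

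Levels per length differed widely between members, although the ribosome holds about equal numbers of each protein. CPM was divided by the length in kilobases of an annotated coding transcript, which 75 of the tested members have. The wild-type level ran from 50.8 to 1117 CPM per kilobase with a median of 315 CPM per kilobase. The highest mean levels over both groups belonged to Rplp1 (1117 ± 148 CPM per kilobase in wild type and 1743 ± 534 in Mettl3-deficient livers, SD, n = 3) and Rpl41, a very short peptide of the 60S subunit (942 ± 85.6 and 1464 ± 380). Rps2 (854 ± 35.8 and 809 ± 195), Rps18 and Rpl10 followed, with means of 832, 829 and 666 CPM per kilobase over both groups. The neighbours Rps2 and Rps18 differed by less than their spread.

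Among the lowest were Rps20 (53.8 ± 10.3 and 75.9 ± 24.5 CPM per kilobase), Rpl13 (87.2 ± 4.97 and 119 ± 36.8), Rps9 (91.1 ± 6.43 and 128 ± 31.7) and Rpl21 (107 ± 23.5 and 137 ± 38.3). Rpl13 and Rps9 did not differ beyond their spread. Rps20 and Rpl5 have the longest coding transcripts used for any tested member (3706 and 2045 bases), and if shorter transcripts are expressed their level per length is higher than given. Across the members, log2 fold change and mean wild-type CPM, not divided by length, had a Spearman rho of -0.39 (n = 76). For log2 fold change and length it was -0.17 (n = 75). Both are descriptions over genes of the same libraries. The wild-type level is also part of the fold change, so the rho of -0.39 does not relate independent measures.

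Sequence shared with other genes limits how exactly single members were measured. Of the 50-base windows of a member's transcript, a median of 62.2% also occur in another annotated mouse gene, with a range from 0% to 95.1%, and 50 members were over 50%. For Rps12 it was 85.4%, shared with 25 other genes, so reads of Rps12 could be dropped or assigned to copies by the authors' counting, and how such reads were treated is not stated in the sources used here. The log2 fold change and this share had a Spearman rho of -0.20 across members. The files list 34 pseudogenes with symbols of the family, which together held 1207, 1019 and 979 counts in wild type and 1513, 2518 and 1525 counts in Mettl3-deficient libraries, with replicate 2 highest as in the genes themselves. Another annotated gene overlaps the span of 18 members, introns included, and whether strand was used in counting is not given. Where exons overlap, reads might not be told apart from the partner's, and overlap of exons was not looked at.

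Members near zero were the paralogues of narrow expression and Rpl39. Rpl3l, known from heart and skeletal muscle, had 1, 3 and 6 counts in wild type and 0, 4 and 10 in Mettl3-deficient libraries. Rpl39l, known from testis, had 2 counts in Mettl3-deficient replicate 2 and 0 elsewhere, and Rpl10l, the testis copy of Rpl10, had 0 in each library. A count of 0 in a library allows a true mean of up to 3 counts, for counting error only. Rpl39, a protein of the peptide exit tunnel, had 2, 0 and 2 counts in wild type and 4, 1 and 0 in Mettl3-deficient libraries. Of its windows, 16.5% were shared with other genes. Whether so few counts give the level of Rpl39 in liver or come from how its reads were counted was not tested. These 4 genes were too low to test. Rpl32l, at 10 to 34 counts per library, was just deep enough to be tested. Rps4l, annotated as a transcribed pseudogene and not a member, stood at 14.6, 16.9 and 30.1 CPM in wild type and at 42.7, 39.9 and 27.6 CPM in Mettl3-deficient libraries (log2 fold change 0.84 ± 0.30, SE, edgeR adjusted p = 0.0756).

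Small nucleolar RNAs, which guide the modification of ribosomal RNA, lie inside 28 of the tested members. The median log2 fold change was 0.39 in these hosts and 0.36 in the other 48. The members lie on 19 chromosomes, 14 of them on chromosome 7, and 4 on the X chromosome.

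The 9 genes that belong to the cytosolic ribosome or its paralogues and fall outside the name rule gave no call. Over all tested genes 13.3% were called higher and 10.5% lower. The 9 genes had a median log2 fold change of 0.03. Rack1, the scaffold on the 40S subunit, had the highest at 0.54 ± 0.26 (SE, edgeR adjusted p = 0.162), followed by Rps27rt at 0.31 and Rpl36al at 0.30. Fau, whose product is cut into a ubiquitin-like part and a ribosomal protein, was at 0.18. Rps27l was at 0.02, Rpl22l1 at -0.04, Rps3a1 at -0.06 and Rpl7l1 at -0.15.

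Of 16 other genes whose messenger RNAs carry TOP tracts, 1 rose and none fell, against 13.3% and 10.5% of all tested genes. Their median log2 fold change was 0.18. Nap1l1, a histone chaperone, rose from 62.9 ± 0.906 to 102 ± 13.7 CPM (SD, n = 3; log2 fold change 0.70 ± 0.15, SE, edgeR adjusted p = 0.0174). The Nap1l1 call was lost without wild type replicate 2 (edgeR adjusted p = 0.0701) or wild type replicate 3 (0.0718). Eef1b2 and Eef1g, subunits that recharge elongation factor 1A with GTP, had log2 fold changes of 0.89 ± 0.28 and 0.78 ± 0.27 (edgeR adjusted p of 0.0532 and 0.0677), with each Mettl3-deficient library above each wild-type library. Hnrnpa1 had 0.36 ± 0.15 (edgeR adjusted p = 0.125).

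Among 18 genes of mTORC1 signalling and TOP translation control, 1 rose and 3 fell, against 13.3% and 10.5% of all tested genes. Their median log2 fold change was -0.19. Eif4ebp1, which binds the cap-binding factor eIF4E and is released from it by mTORC1, rose by 0.65 ± 0.18 (SE, edgeR adjusted p = 0.0329). Its paralogue Eif4ebp3 fell from 129 ± 83.6 CPM in wild type to 29.2 ± 0.779 CPM in Mettl3-deficient libraries (SD, n = 3; log2 fold change -2.14 ± 0.49, SE, edgeR adjusted p = 0.0228). Larp1b, a relative of Larp1, had -0.65 ± 0.17 and Rps6kb1, the kinase that phosphorylates the ribosomal protein Rps6, had -0.53 ± 0.14 (edgeR adjusted p of 0.0313 and 0.0354). With library size alone Larp1b was at -0.16 and Rps6kb1 at -0.06, and neither was called (edgeR adjusted p of 0.540 and 0.790). Each of these 4 calls was lost when some single libraries were left out. The edgeR adjusted p reached 0.120 for Eif4ebp1 (without wild type replicate 2), 0.0886 for Eif4ebp3 (without Mettl3-deficient replicate 2), 0.105 for Larp1b (without wild type replicate 2) and 0.110 for Rps6kb1 (without wild type replicate 3).

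Of 9 transcription factors of ribosomal protein promoters, Myc, which drives ribosome production in growing cells, was the only one called. Beside it, 13.3% of all tested genes were called higher and 10.5% lower. Myc rose from 1.74, 7.43 and 8.80 CPM in wild type to 27.7, 48.2 and 19.7 CPM in Mettl3-deficient libraries (log2 fold change 2.41 ± 0.60, SE, edgeR adjusted p = 0.0303). The Myc call was lost without wild type replicate 2 (edgeR adjusted p = 0.0860) or 3 (0.0572), and without replicate 1 (0.0769) or 2 (0.0934) of the Mettl3-deficient group. Like the family, Myc was highest in Mettl3-deficient replicate 2, while in wild type its lowest library was replicate 1, where the family was highest. Yy1 had -0.35 ± 0.13, Max, the partner of Myc, 0.48 ± 0.18 and Taf1 -0.52 ± 0.26 (edgeR adjusted p of 0.0939, 0.0956 and 0.181).

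Of 12 chaperones and escorts that bring ribosomal proteins to the ribosome, 2 rose and 1 fell, against 13.3% and 10.5% of all tested genes. Their median log2 fold change was 0.30. Grwd1, an escort of Rpl3, rose from 10.8, 17.0 and 16.6 CPM to 47.8, 80.8 and 32.1 CPM (log2 fold change 1.86 ± 0.35, SE, edgeR adjusted p = 0.0112), and Nap1l1 is the other. Aamp fell by 0.52 ± 0.15 (edgeR adjusted p = 0.0460), a call that was kept without wild type replicate 1 and lost without any other library (edgeR adjusted p from 0.0623 to 0.156). Tsr2, the escort of Rps26, was at 0.54 ± 0.17 (edgeR adjusted p = 0.0565).

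Of 20 genes of ribosome surveillance, rescue and quality control, 6 rose and 4 fell, against 13.3% and 10.5% of all tested genes. Ube2o, which marks ribosomal proteins left outside ribosomes, rose from 15.7 ± 0.484 to 33.5 ± 6.89 CPM (log2 fold change 1.09 ± 0.18, SE, edgeR adjusted p = 0.00742). Mdm2, the p53 ligase that free Rpl5 and Rpl11 hold, rose from 34.3 ± 0.404 to 63.7 ± 10.2 CPM (0.90 ± 0.16, edgeR adjusted p = 0.00917). Cdkn1a, a p53 target that stops the cell cycle, rose by 1.70 ± 0.30 (edgeR adjusted p = 0.00938). Gtpbp2, which acts on stalled ribosomes, rose by 1.45 ± 0.26 (edgeR adjusted p = 0.00959). Pelo and Efl1 also rose, and Ltn1, Ankzf1, Mdm4 and Gtpbp1 fell. Leaving out 1 library at a time gave 4 to 7 genes higher and 0 (without Mettl3-deficient replicate 1) to 7 (without wild type replicate 1) lower, and the calls of Ube2o, Mdm2, Cdkn1a and Gtpbp2 were kept each time.

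The mitochondrial ribosome, encoded by a separate set of nuclear genes, was read beside the cytosolic one. Of 77 tested mitochondrial ribosomal protein genes 18 rose and 4 fell, with a median log2 fold change of 0.12. Of the 76 cytosolic members 1 rose and 0 fell, with a median of 0.38. Among all tested genes 13.3% were called higher and 10.5% lower, with a median of 0.01. Mrpl43 rose from 38.3, 45.7 and 38.0 CPM in wild type to 129, 107 and 117 CPM in Mettl3-deficient libraries (log2 fold change 1.54 ± 0.16, SE, edgeR adjusted p = 0.00174). Mrps2 rose by 1.57 ± 0.18, Mrps6 by 1.55 ± 0.20 and Mrpl46 by 1.16 ± 0.16 (edgeR adjusted p of 0.00222, 0.00379 and 0.00428). Leaving out 1 library at a time gave 7 (without wild type replicate 3) to 21 (without wild type replicate 1) mitochondrial genes higher and 2 to 4 lower. Among the Mettl3-deficient libraries, replicate 2 was the highest in 39 of the 77 mitochondrial genes, Mrps2 and Mrps6 among them, and in 76 of the 76 cytosolic genes. The share of all tested genes that were highest in that library is not given here. Whether the mitochondrial and cytosolic sets differ was not tested.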

How the data were processed

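Per the labels' protocols, RNA came from flash-frozen liver by TRIzol extraction, rRNA was depleted with Ribo-Zero Gold, and a NEBNext Ultra II Directional kit was used for the libraries. The authors deposited raw counts, 1 whole number for each Entrez gene and library. HISAT2, featureCounts and the build mm10 are named in the submitters' processing notes. Their versions, the annotation, the strand setting and the treatment of reads with several matches are not stated there. Of 27179 identifiers, 25275 matched RefSeq symbols of GRCm38.p6, the build that mm10 names. Transcript lengths are those of the shortest complete GENCODE coding transcript whose coding part reaches 80% of the gene's longest. Windows were printed for genes with 1 start in the promoter sequences, leaving out chromosome 18.

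Depth was 31960205 to 36025772 counts per library. edgeR 4.0.16 under R 4.3.3 was fitted to the counts of all genes, with TMM factors and genotype as the only term, after filterByExpr (minimum count 10, minimum total 15). Its robust quasi-likelihood F test was read two-sided, and genes with a Benjamini-Hochberg adjusted p under 0.05, over 14380 genes, were called. The SE of a log2 fold change is its size divided by the square root of F. The fit was also run on simulated counts with as many genes raised as lowered and no library set apart. Those counts lack the differences between libraries described above, and their outcome is not given here. No 2 libraries of the same genotype agreed within sampling noise.

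Alternatives were RLE and upper-quartile factors, library size alone, TMM factors without the members, DESeq2 1.42.0, limma-voom (limma 3.58.1), no filter, a filter that asks for 1 CPM in 3 libraries, removal of the 20 most abundant genes, the replicate number as a block, a covariate for libraries with over 100 Y-linked counts, and leaving out single libraries. Scaling by the members' summed counts was added after seeing the data.

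The members, the lists of companion and marker genes and the rule for named genes were chosen with earlier results of these data known. The rule names the stalk and 5S particle proteins, the paralogues of narrow expression, the 8 highest and 8 lowest log2 fold changes, the 5 highest and 5 lowest levels per length, and up to 4 members of each companion list by p. Some genes the rule takes in are not reported here. Other genes named were chosen after their values were seen.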

Additional observations from a re-analysis of the deposited data

How the results depend on the processing

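No member was called lower under any alternative run, and the median log2 fold change of the 76 members was above 0 in each. Scaling by the members' own summed counts centres them near 0 by construction (median 0.039), so its sign there carries no information. The count called higher was 38 with library size alone (22 of the 60S, 16 of the 40S), 5 with DESeq2 (4 of the 60S), 0 with the members' own summed counts (0 of the 40S), and 0 to 3 with 1 library left out (0 to 2 of the 60S, 0 to 1 of the 40S). The median with library size alone was 0.87 (60S 0.79, 40S 0.96). Scaled by the members' summed counts, the 60S members had a median log2 fold change of -0.017. With the 20 most abundant genes out of the denominator the wild-type mean share was 2.21%.

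Library size alone called 33.4% of all tested genes higher and 4.14% lower. For the companion lists, library size alone gave 2 calls higher and a median of 0.52 for the ribosomal genes outside the name rule. It gave 7 and 0.67 for other TOP genes. It gave 5 higher, 1 lower and 0.285 for mTORC1 and TOP control, and 3 higher and 0.42 for the transcription factors. It gave 7 higher, 0 lower and 0.78 for the chaperones, 10 higher, 0 lower and 0.62 for surveillance, and 43 higher, 0 lower and 0.59 for the mitochondrial set. Other TOP genes called higher were 2 with upper-quartile factors, 3 with DESeq2 and 2 with no filter. The mTORC1 list had 0 higher with the replicate block and with the Y-linked covariate. The transcription factors had 0 higher with no filter and with the Y-linked covariate. The chaperones had 0 lower with upper-quartile factors, with no filter and with the replicate block. Surveillance had 2 lower with the replicate block, and the mitochondrial set 7 lower with the Y-linked covariate. With 1 library left out, the counts ran from 0 to 3 higher for other TOP genes, 0 to 1 higher and 0 to 3 lower for mTORC1, 0 to 1 higher for the transcription factors, 1 to 5 higher and 0 to 1 lower for the chaperones, 0 to 7 lower for surveillance (median -0.068 to 0.20), and 7 to 21 higher and 2 to 4 lower for the mitochondrial set.

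Named genes near 0 changed sign. With library size alone log2 fold changes were 0.44 for Rpl11, 0.35 for Rpl7, 0.36 for Rpl35a, 0.41 for Rps2, 0.435 for Rpl10, 0.46 for Rpl24, 0.42 for Rps3a1, 0.45 for Rpl22l1, 0.34 for Rpl7l1 and 0.12 for Yy1. With the members' summed counts they were -0.11 for Rpl5, -0.33 for Rps14, -0.29 for Rpl15, -0.17 for Rps18, -0.166 for Fau and -0.25 for Rps27l. With the Y-linked covariate they were -0.18 for Rps14, -0.11 for Rpl15 and -0.064 for Rps27l. Rps14 was at -0.024 with limma-voom and -0.02 with the replicate block, and Rpl24 at 0.007 with upper-quartile factors. With 1 library left out, ranges were -0.051 to 0.386 for Rpl5, -0.21 to 0.15 for Rpl11, -0.323 to 0.053 for Rpl7, -0.34 to 0.14 for Rpl35a, -0.267 to 0.081 for Rps2, -0.24 to 0.10 for Rpl10, -0.21 to 0.09 for Rpl24, -0.30 to 0.20 for Rps14, -0.16 to 0.17 for Rpl15, -0.074 to 0.287 for Rps18, -0.011 to 0.279 for Fau, -0.25 to 0.15 for Rps3a1, -0.30 to 0.15 for Rpl22l1, -0.10 to 0.27 for Rps27l and -0.018 to 0.766 for Rps27rt. The cause of these changes was not tested. Libraries with the same replicate number did not deviate together (correlations 0.0862, -0.0232 and 0.0419), so the numbers were not taken as pairs. With the replicate block Rps12 was at 1.11 (edgeR adjusted p = 0.0431), and 1 member was called higher. With a median SE of 0.26, a change in 1 member as small as the family's median of 0.38 was not detectable with these libraries.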
